A study of Mus musculus with 18 samples.

Results

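The potassium channel genes are the rows of the deposited mouse brain count table whose symbol starts with Kcn, followed by a subfamily letter code and a number. Of 92 symbols of this form, Kcna1 and Kcna2 were left out, which gave 90 genes among 27179 in the table. They are described here by subfamily across 4 dose groups of C57BL/6J mice, non-transgenic animals of a common inbred strain. From 4 months of age, mice were gavaged once a day for 14 days with the herbicide glyphosate or with vehicle, which was the same pH-adjusted solution lacking the herbicide. RNA came from bulk tissue of perfused brains, and the study is not uniform on the region, with a single hemisphere in its methods and hippocampus in its introduction. Its results name the cohort whose brains were halved, while the hippocampus was dissected in the other cohort. The labels of the count columns carry the word Whole. Markers of neurons, glia, choroid plexus, striatum and cerebellum were all counted. Vehicle was given to 5 mice (2 males, 3 females). Glyphosate was given to 5 mice at 125 mg/kg (3 males, 2 females), to 4 at 250 mg/kg (3 males, 1 female) and to 4 at 500 mg/kg (2 males, 2 females). According to the study's methods cages held animals of the same sex and dose, so cage and dose cannot be told apart. Litters are not given, and p-values measure the spread between these mice.

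Potassium channels let potassium ions leave or enter a cell down their electrochemical gradient, and so set the resting potential, the shape of the action potential and the firing rate of neurons. Voltage-gated (Kv) channels open on depolarization, inward rectifiers (Kir) pass current best near rest, tandem-pore K2P channels leak at rest, and calcium- or sodium-activated channels respond to ions inside the cell. Silent Kv subunits (Kv5, Kv6, Kv8 and Kv9) form no working channel alone and modify Kv2 channels, and auxiliary subunits alter gating and trafficking without forming a pore. In the brain, astrocytes use Kir channels to clear potassium that neurons release, and the choroid plexus uses others for its secretion.

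What the pore-forming members share in sequence is the selectivity filter, the short loop whose backbone strips water from potassium ions. It typically reads glycine, tyrosine or phenylalanine, glycine after a threonine or serine. Coding sequences on GRCm38 (GENCODE M21, longest coding transcript) of 88 members were searched on the coding strand and in frame for 5 codons in a row. The first codon was ACN or TCN or AGT or AGC, the second could be any, the third was GGN, the fourth was TAT or TAC or TTT or TTC, and the fifth was GGN. A match was found in 73 of the 73 pore-forming members read and in 0 of 15 auxiliary members (the Kcnab, Kcnip, Kcne and Kcnmb genes). Of 20027 other genes with a coding sequence read, 2.39% held a match. The match is a description of letters and does not by itself mark a filter. Of the 14 K2P genes, 11 held 2 matches. Windows of 36 coding bases are printed for pore genes on which the dose results below turn, with the 15 matched bases in capitals, so that the shared stretch and its differing middle codon can be seen.
Kcnk9, match nearest the start, chr15:72513028-72546015, minus strand, joined across 2 exons: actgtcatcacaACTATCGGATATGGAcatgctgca
Kcnk9, later match, chr15:72512710-72512745, minus strand: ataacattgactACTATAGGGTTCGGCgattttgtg
Kcns3, chr12:11091566-11091601, minus strand: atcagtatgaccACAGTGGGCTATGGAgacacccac
Kcns2, chr15:34839600-34839635, plus strand: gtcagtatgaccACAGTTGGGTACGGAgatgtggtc
Kcnv1, chr15:45109280-45109315, minus strand: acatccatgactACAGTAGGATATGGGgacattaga
Kcnj14, chr7:45819624-45819659, minus strand: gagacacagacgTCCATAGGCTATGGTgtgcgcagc
Kcnj10, chr1:172369290-172369325, plus strand: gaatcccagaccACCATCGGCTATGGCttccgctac
Kcnh2, chr5:24325546-24325581, minus strand: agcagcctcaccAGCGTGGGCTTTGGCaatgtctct
Kcnh3, chr15:99232917-99232952, plus strand: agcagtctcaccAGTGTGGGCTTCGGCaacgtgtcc
Kcnt2, chr1:140425266-140425301, plus strand: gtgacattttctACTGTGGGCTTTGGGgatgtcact
The fourth matched codon was TAT or TAC (tyrosine) in all 9 silent subunits read and in 13 of 15 Kir genes. It was TTT or TTC (phenylalanine) in 8 of the 28 voltage-gated pore genes and in 3 of the 7 ion-activated pore genes. Of the 14 K2P genes, 11 had a match with a tyrosine codon and 11 had a match with a phenylalanine codon. Kcnk9 held both kinds, and both matches of Kcnk2, Kcnk12 and Kcnk13 held phenylalanine codons. The windows lie in coding exons, and the 36-base window of the match nearest the start spanned 2 exons in every K2P gene.

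Of the 90 genes, 76 had enough counts to be tested and 14 did not, among them Kcnk16, for which no read was counted in any mouse. Levels are given in CPM, read counts scaled to a common library size, and were compared between genes after division by exon length in kb (CPM per kb). The highest was Kcnj10, the glial Kir channel Kir4.1, at 83.8 CPM per kb over the 18 mice. It was closely followed by Kcnab2, a cytoplasmic Kv beta subunit, at 82.1 CPM per kb, and their ranges over mice overlapped (38.6 to 153 against 52.7 to 116). Kcnj4 (53.1) and the K2P gene Kcnk1 (51.0) came next and overlapped as well. Among Kv genes, the Shaw-type Kcnc1, which serves fast-spiking cells, was at 40.3, Kcnd2 at 38.5 and Kcna6 at 31.1 CPM per kb. The lowest tested genes included Kcnq1 at 0.192 and Kcnh8 at 0.281 CPM per kb. Kcnq1 lies over Kcnq1ot1, a long RNA read from the other strand. It averaged 0.787 CPM against 240 CPM for that RNA, and since the strand setting of the count is not given, its few reads cannot be assigned to either with certainty.

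**Figure D1:**
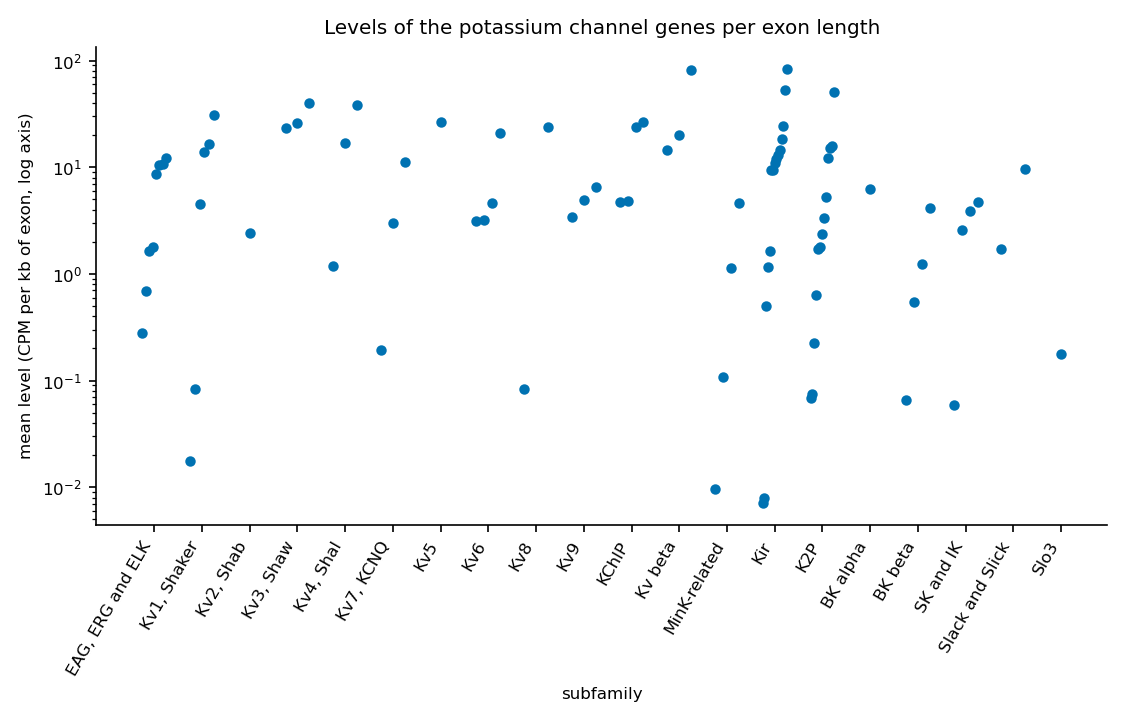
Mean level over 18 mice of potassium channel genes with at least 1 count, in CPM per kb of exon (log axis), grouped by subfamily, 1 point per gene. Kcnj10 at 83.8 and Kcnab2 at 82.1 CPM per kb are the highest points, and the Kir and K2P genes are spread over several steps of the axis.

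Total counts per mouse ran from 3948096 to 11732885 with a median of 7789800, and the group ranges overlapped. Mouse G9 (vehicle, female) and mouse G4 (500 mg/kg, female) stood apart from the other 16. The summed level of 5 glutamatergic neuron markers (Slc17a7, Neurod6, Tbr1, Camk2a, Nrgn) was 336 CPM in G9 and 340 CPM in G4, against 1510 to 5160 CPM in the rest. The 6 oligodendrocyte markers summed to 15300 CPM in G4, against 3670 to 9550 CPM in the other 16 mice. Choroid plexus markers summed to 1220 CPM in G9 and to 13.4 to 775 CPM elsewhere. The number of G4 falls among those of the vehicle mice, while its label places it at 500 mg/kg. G4 shares its tag number with G79 of the same dose, but other tag numbers hold mice of more than 1 dose. Slopes of members without both mice are given where they differ by more than 1.5 times or bear on a call, and without them 77 members were tested. In bulk tissue, fewer cells of a type and less RNA per cell cannot be told apart.

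The main question was whether expression followed dose. No potassium channel gene passed edgeR's quasi-likelihood test of a straight dose line with sex as covariate at an adjusted p of 0.05, where 0.29% of all 15863 tested genes passed. An unadjusted edgeR p under 0.05 was found for 16 of 76 members (21.1%), against 13.2% of all genes. Of these, 8 had a positive slope (7.91% of all genes had both) and 8 a negative one (5.28% of all genes). This count depended on single mice and on the model. It was 5 without G4, 30 without G9, 9 without G1, G15 or G87, 7 with 1 surrogate variable and 2 with the tag number as block. The shares over all genes at these settings are not given here. Whether the members moved apart from other genes cannot be read from these counts. DESeq2 called 3 members (Kcnk9, Kcns3 and Kcnmb4) where it called 1.53% of all genes, and limma-voom called 0. Without G4 alone, and without G4 and G9 together, DESeq2 called 0. The slope is the log2 change per 500 mg/kg. Its median over the 76 members was -0.12, and 39 slopes were negative (51.3%, against 48.8% of all genes, whose median was 0.01). Without G4 and G9, edgeR called 0 of 77, 18 had an unadjusted p under 0.05 (11.7% of all genes did), 42 slopes were negative and the median was -0.05.

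The groups of channels were spread to different degrees. Voltage-gated pore genes split 12 negative to 14 positive with a median slope of 0.03 (26 tested). Silent modifiers split 6 to 3 with a median of -0.62 (9 tested), and without G4 and G9 the median was -0.51. Auxiliary Kv subunits split 5 to 4 (median -0.18, 9 tested), and inward rectifiers 8 to 5 (median -0.19, 13 tested). K2P genes split 4 to 6 (median 0.05, 10 tested) and the calcium- or sodium-activated group, BK beta subunits included, 4 to 5 (median 0.07, 9 tested). In none of the 6 groups did all members lean one way.

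**Figure D2:**
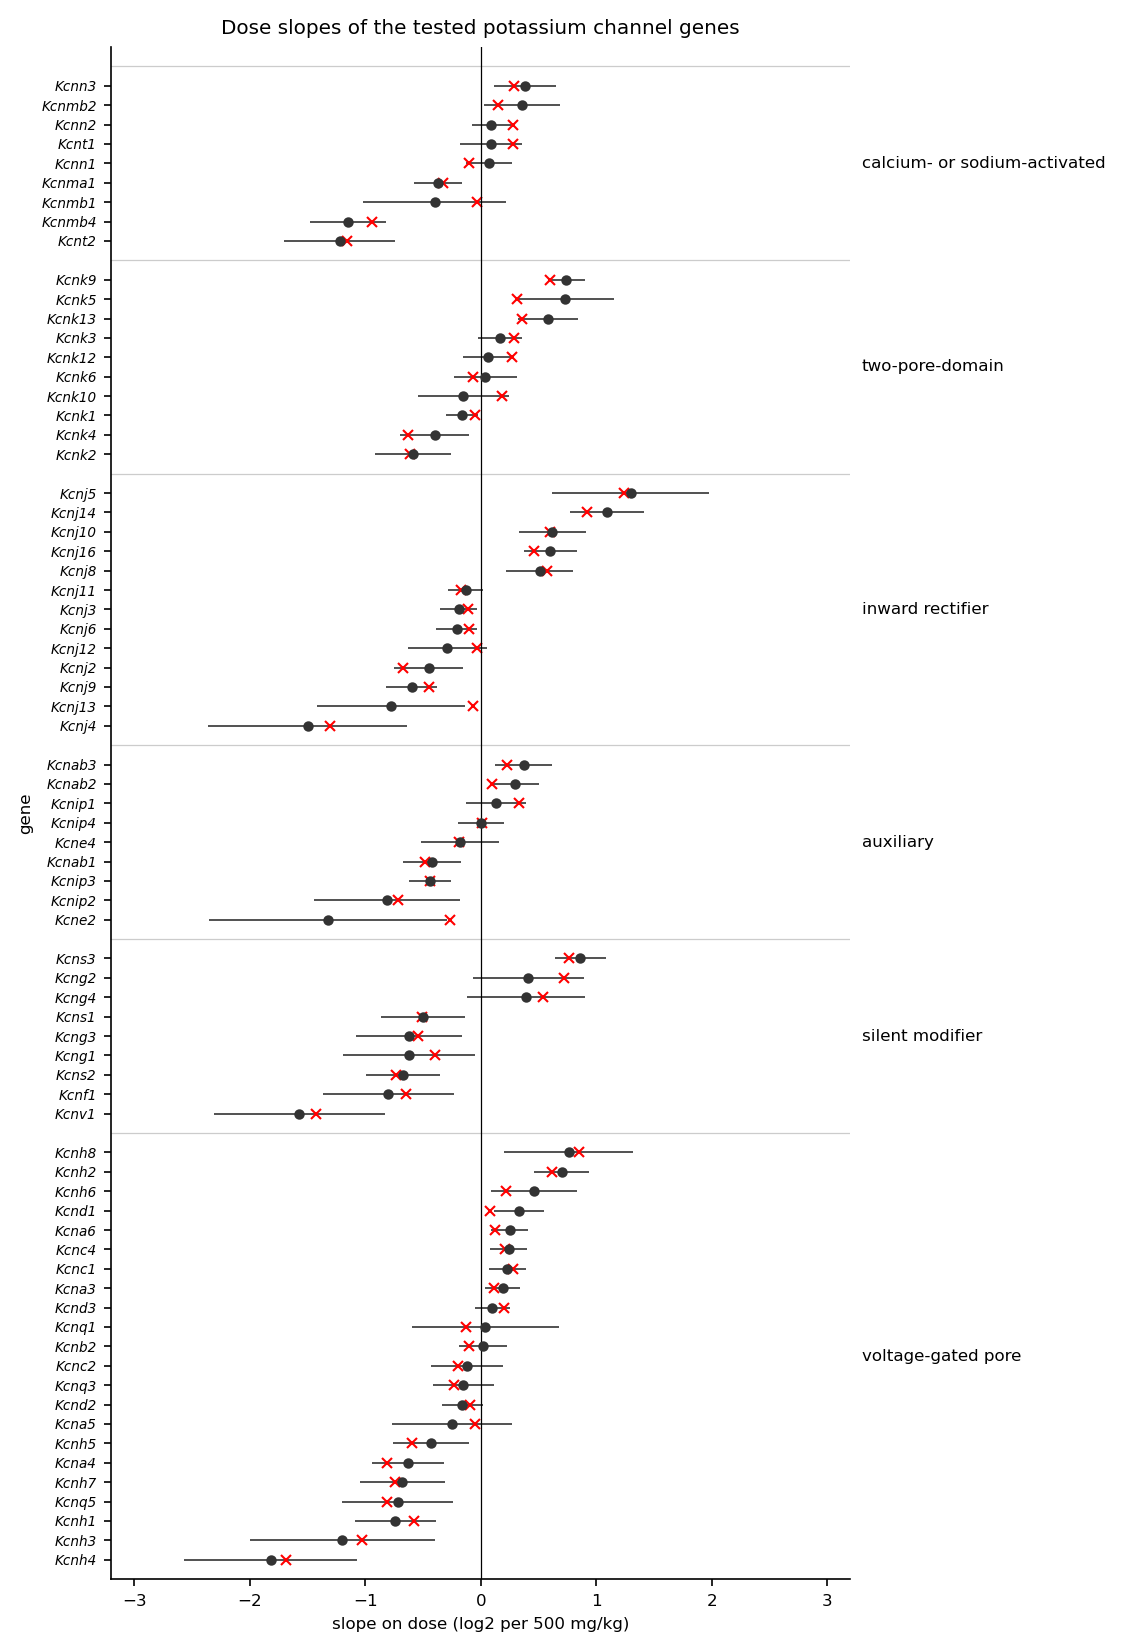
Dose slope (log2 per 500 mg/kg, horizontal) of 72 of the 76 tested genes by channel class, with dots and bars for slope and standard error over 18 mice and red crosses for the slope without mice G4 and G9. Slopes run from -1.82 (Kcnh4) to 1.30 (Kcnj5), the widest bars belong to negative slopes, and the crosses of Kcne2 and Kcnj13 lie much nearer 0 than their dots.

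Among the K2P leak channels, Kcnk9 had the smallest p of all members. It encodes TASK-3, an acid-sensitive leak channel, and its levels in the 5 vehicle mice were 33.1, 41.7, 33.6, 28.8 and 44.4 CPM. At 125 mg/kg they were 42.9, 27.5, 28.4, 30 and 30.4 CPM, at 250 mg/kg 41.7, 36.0, 46.1 and 42.5 CPM, and at 500 mg/kg 71.4 (G4), 55.5, 54.0 and 46.4 CPM. Each of the 4 top-dose mice exceeded the highest vehicle mouse, while 125 mg/kg lay mostly below the middle of the vehicle range and overlapped it. The mean went from 36.3 ± 6.47 (SD, n = 5) to 56.8 ± 10.5 CPM (SD, n = 4), and the slope was 0.74 with a standard error (SE) of 0.16 (edgeR adjusted p = 0.0576, DESeq2 adjusted p = 0.00406). Without G4 and G9 the slope was 0.60 (edgeR adjusted p = 0.244). This gene passed edgeR when mouse G18 or mouse G29 was left out and when 10 counts were required in every library. The shares of all genes that passed at these settings are not given here.

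Kcnk13, the K2P channel THIK-1 known from microglia, had 13.7 ± 1.86 CPM in vehicle and 22.3 ± 7.41 CPM at 500 mg/kg. The slope was 0.58 ± 0.26 (SE, edgeR adjusted p = 0.344), and G4 held the highest level of all mice at 29.8 CPM. Without G4 and G9 the slope was 0.36. The 6 microglia markers summed to 142 to 256 CPM in vehicle and to 260 to 327 CPM at 125 mg/kg. At 500 mg/kg they summed to 193 to 257 CPM, with G4 highest. Of the microglia marker slopes, 4 were negative and 2 positive. Kcnk1, the most abundant K2P gene per length, was nearly level, at 120 ± 23.6 CPM in vehicle and 108 ± 9.06 CPM at 500 mg/kg (slope -0.16, SE 0.14, and -0.05 without G4 and G9). Slopes of the 10 tested K2P genes ran from -0.59 (Kcnk2, the mechanosensitive TREK-1) to 0.74.

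**Figure D3:**
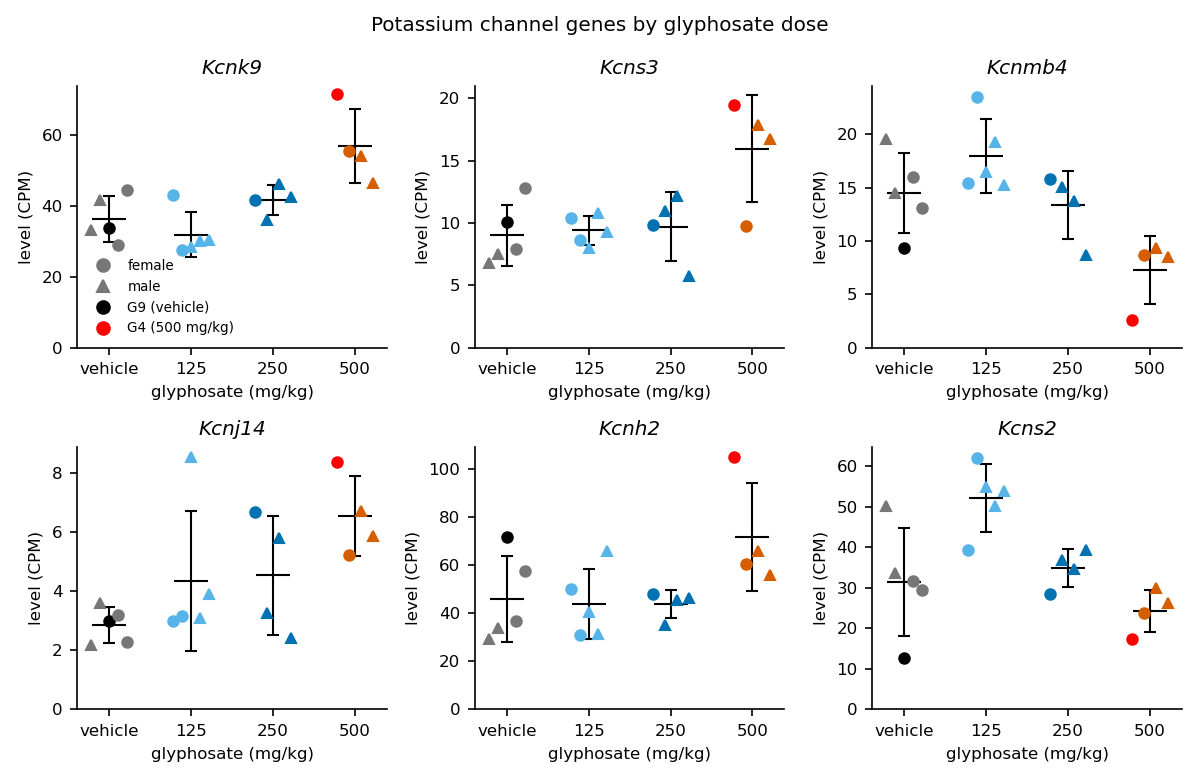
Levels in CPM (vertical) in each mouse by glyphosate dose (horizontal) for 6 genes, circles for females, triangles for males, black for G9 and red for G4, with a dash and bar for mean and SD (n = 5, 5, 4 and 4). For Kcnk9 and Kcnj14 the top-dose points do not overlap the vehicle points. For Kcns3, Kcnmb4, Kcnh2 and Kcns2 the groups overlap, and G4 is the highest or the lowest of the 500 mg/kg mice in each of the 6 panels.

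Inward rectifiers held both directions. Kcnj14, a Kir2-type channel (Kir2.4) first known from motor neurons, was scarce, at 2.16, 3.58, 2.99, 3.17 and 2.28 CPM in the vehicle mice. It reached 2.99, 3.16, 8.52, 3.07 and 3.89 CPM at 125 mg/kg, 6.66, 3.26, 5.78 and 2.39 CPM at 250 mg/kg, and 8.35 (G4), 5.2, 6.70 and 5.86 CPM at 500 mg/kg. The 500 mg/kg mice lay above all vehicle mice, and single mice at the lower doses reached the same levels. Its slope was 1.09 ± 0.32 (SE, edgeR adjusted p = 0.160). Kcnj5, which codes for the G-protein-gated subunit GIRK4, was another of the members with this separation. Its 500 mg/kg mice had 2.31, 5.2, 4.07 and 3.06 CPM against 0.529 to 1.71 CPM in vehicle, but mouse G45 at 125 mg/kg had the highest level of all, 9.82 CPM. The slope was 1.30 ± 0.68 (SE, edgeR adjusted p = 0.426).

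In all, 4 of 76 members had every 500 mg/kg mouse above every vehicle mouse (Kcnk9, Kcnj14, Kcnj5 and Kcnh8), where 2.32% of all tested genes did. None had every 500 mg/kg mouse below, where 0.933% of genes did. Kcnh8, an ELK channel near the filter on low counts, had a vehicle maximum of 1.55 CPM and 1.80 to 1.91 CPM at 500 mg/kg.

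The glial Kir genes were both higher at the top dose, within overlapping ranges. Kcnj10 (Kir4.1) had 209, 325, 666, 308 and 561 CPM in vehicle mice and 829 (G4), 447, 650 and 553 CPM at 500 mg/kg. Mouse G9 was the highest of the vehicle mice and G4 the highest of all. Its partner Kcnj16 (Kir5.1), which forms mixed channels with Kir4.1, had 39.9 ± 13.0 CPM in vehicle and 57.8 ± 16.6 CPM at 500 mg/kg. Slopes were 0.62 ± 0.29 (edgeR adjusted p = 0.365) and 0.60 ± 0.23 (edgeR adjusted p = 0.266), and without G4 and G9 they were 0.60 and 0.46. The 6 astrocyte markers held both directions (4 positive and 2 negative slopes, 0 called by edgeR). Gfap had a slope of 0.83 ± 0.26 (206 ± 107 to 352 ± 123 CPM, edgeR adjusted p = 0.174) and Aqp4 0.41 ± 0.30, while Slc1a2, which made up most of the summed level, had -0.18 ± 0.23. The sum was 5050 to 8540 CPM in vehicle and 6340 to 7910 CPM at 500 mg/kg, with G9 lowest of 18 and G4 sixth from the lowest. The 6 oligodendrocyte markers, of another glial type, summed to 3790 to 6690 CPM in vehicle and 5490 to 15300 CPM at 500 mg/kg, with G4 highest. The part of either marker list in the Kir slopes was not tested.

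Kcnj9, the G-protein-gated neuronal subunit GIRK3, was lower at the top dose. Vehicle mice had 115, 126, 83, 125 and 97.7 CPM, and the 500 mg/kg mice 40.7 (G4), 91.0, 87.1 and 92.6 CPM. Apart from G4, the top-dose mice lay within the vehicle range, between G9 and the rest. The slope was -0.60 ± 0.22 (SE, edgeR adjusted p = 0.261), and -0.45 without G4 and G9. Its relatives Kcnj3 (GIRK1) and Kcnj6 (GIRK2) had slopes of -0.19 and -0.21, each with a standard error near its size, and -0.11 and -0.10 without G4 and G9.

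The forebrain Kir2 gene Kcnj4 (Kir2.3) varied widely between mice. It was counted at 215, 124, 0.665 (G9), 162 and 101 CPM in vehicle mice and at 4.50 (G4), 64.7, 88.8 and 58.2 CPM at 500 mg/kg. G9 and G4 lay far below the other 16 mice, whose range was 41.9 to 282 CPM. The slope was -1.50 ± 0.86 (SE, edgeR adjusted p = 0.470), and -1.31 without both mice (edgeR adjusted p = 0.293). Kcnj13 (Kir7.1), a channel of the choroid plexus, ran from 3.57 to 46.0 CPM with no order by dose (slope -0.78, SE 0.64). Without G4 and G9 its slope was -0.07. Its gene overlaps Gigyf2, which averaged 48.5 CPM.

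Among voltage-gated pore genes, Kcnh2, the ERG1 channel also known for the cardiac rapid delayed rectifier, had 29.3, 33.9, 71.7 (G9), 36.6 and 57.6 CPM in vehicle mice. At 125 mg/kg it had 50.0, 30.7, 40.3, 31.4 and 65.9 CPM, at 250 mg/kg 48.1, 35.2, 45.6 and 46.1 CPM, and at 500 mg/kg 105 (G4), 60.5, 65.7 and 55.9 CPM. The ranges overlapped, and G4 and G9 were the 2 highest of 18. The slope was 0.70 ± 0.24 (SE, edgeR adjusted p = 0.209), and 0.62 without both mice.

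Kcnh4 and Kcnh3, ELK channels of the forebrain, went the other way from Kcnh2. Kcnh4 had 22.8, 6.21, 0.111 (G9), 5.29 and 7.85 CPM in vehicle mice and 0.257 (G4), 2.85, 3.68 and 3.19 CPM at 500 mg/kg. Its slope was the most negative of all members, -1.82 ± 0.75 (SE, edgeR adjusted p = 0.304), and -1.69 without G4 and G9 (edgeR adjusted p = 0.277). Among the other 16 mice, the 500 mg/kg mice lay below every vehicle mouse. This subset was chosen after the data were seen, and the share of all genes with the same separation was not counted. Kcnh3 was counted at 131, 73.7, 0.665 (G9), 72.9 and 52.5 CPM in vehicle and at 3.08 (G4), 40.7, 55.8 and 34.5 CPM at 500 mg/kg. Its slope was -1.20 ± 0.80 (SE, edgeR adjusted p = 0.537). Kcnh1, an EAG channel, had a slope of -0.74 ± 0.35 (SE, edgeR adjusted p = 0.377) with means of 96.0 ± 31.8 and 60.2 ± 24.9 CPM.

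The other Kv subfamilies held slopes of both signs. Kcnq5, an M-current gene, had 83.1 ± 53.3 CPM in vehicle and 56.4 ± 16.9 CPM at 500 mg/kg (slope -0.72 ± 0.48). The Shaw genes Kcnc1, Kcnc2 and Kcnc4, which allow fast firing, had slopes of 0.23, -0.12 and 0.24, and that of Kcnc2 was -0.20 without G4 and G9. The A-type Shal gene Kcnd2 was at 204 ± 36.2 and 181 ± 54.1 CPM (slope -0.16 ± 0.18) and its scarcer relative Kcnd1 had a slope of 0.33 ± 0.22. Leaving out G4 and G9 gave -0.09 and 0.08. The Shaker gene Kcna6 had 161 ± 14.5 CPM in vehicle and 205 ± 34.9 CPM at 500 mg/kg (slope 0.25 ± 0.16, and 0.12 without G4 and G9), while Kcna4, of the A-type, had 70.2 ± 42.3 and 48.6 ± 8.85 CPM (slope -0.63 ± 0.31). None of these had an edgeR adjusted p under 0.05.

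The silent subunits, which assemble with Kv2 channels, differed in direction within the Kv9 subfamily. Kcns3 (Kv9.3), a gene of parvalbumin interneurons, was at 6.78, 7.47, 10.1 (G9), 7.93 and 12.8 CPM in vehicle mice. At 125 mg/kg its levels were 10.4, 8.64, 8.03, 10.8 and 9.28 CPM, at 250 mg/kg 9.87, 11, 12.2 and 5.77 CPM, and at 500 mg/kg 19.5 (G4), 9.72, 17.9 and 16.7 CPM. Of the 500 mg/kg mice, all but G79 lay above every vehicle mouse. The slope was 0.86 ± 0.22 (SE, edgeR adjusted p = 0.0984, DESeq2 adjusted p = 0.0182), and 0.76 without G4 and G9 (edgeR adjusted p = 0.290).

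Kcns2 (Kv9.2) was not arranged in a line. It had 50.1, 33.6, 12.6 (G9), 31.7 and 29.4 CPM in vehicle mice, 39.3, 62.1, 54.8, 50.1 and 53.9 CPM at 125 mg/kg, 28.4, 36.8, 34.7 and 39.2 CPM at 250 mg/kg and 17.3 (G4), 23.6, 29.8 and 26.2 CPM at 500 mg/kg. Its levels were highest at 125 mg/kg, and every mouse at 500 mg/kg lay below every mouse at 125 mg/kg. In the edgeR test for any difference among the 4 groups its adjusted p was 0.128, and its slope was -0.67 ± 0.32 (edgeR adjusted p = 0.378). Without the vehicle mice the slope of Kcns2 over the remaining doses was -1.42 and passed (edgeR adjusted p = 0.0433), and without the 500 mg/kg mice it was 0.25. The share of all genes that passed without the vehicle mice is not given here.

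Kcnv1 (Kv8.1) had 174, 219, 3.21 (G9), 122 and 103 CPM in vehicle mice and 6.94 (G4), 57.5, 70.3 and 70.1 CPM at 500 mg/kg. With G9 left aside, all vehicle mice lay above all 500 mg/kg mice. G9 was left aside after its values were seen, and the share of all genes that separate in this way was not counted. Its slope was -1.57 ± 0.74 (SE, edgeR adjusted p = 0.377), and -1.43 without G4 and G9 (edgeR adjusted p = 0.286). Kcnf1 (Kv5.1) had 113 ± 64.5 CPM in vehicle, 181 ± 52.3 CPM at 125 mg/kg and 84.8 ± 52.0 CPM at 500 mg/kg. Kcng3 (slope -0.62 ± 0.46) and Kcng4 (slope 0.39 ± 0.51) of the Kv6 group did not lean the same way, and Kcng4 ranged from 9.29 to 210 CPM over the mice.

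Among auxiliary subunits, Kcnip3, the calcium sensor KChIP3 that binds Kv4 channels and is also called DREAM, had 101 ± 25.5 CPM in vehicle and 78.7 ± 14.6 CPM at 500 mg/kg. The slope was -0.44 ± 0.18 (SE, edgeR adjusted p = 0.304) and stayed at -0.44 without G4 and G9. The Kv beta genes differed, with slopes of -0.42 ± 0.25 for Kcnab1 and 0.30 ± 0.20 for Kcnab2 (0.10 without G4 and G9). Kcne2, a single-pass subunit of the choroid plexus, ran from 0.154 to 35.1 CPM with a slope of -1.32 ± 1.03 (SE, edgeR adjusted p = 0.619), and -0.27 without G4 and G9. Its highest level was in G9, the mouse with the highest choroid plexus markers.

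In the ion-activated group, Kcnmb4, the neuronal BK beta subunit that slows BK gating, had the smallest p. Vehicle mice had 19.6, 14.5, 9.31 (G9), 16 and 13.1 CPM, the 125 mg/kg mice 15.4, 23.5, 16.5, 19.3 and 15.3 CPM, the 250 mg/kg mice 15.8, 15.1, 13.8 and 8.72 CPM and the 500 mg/kg mice 2.57 (G4), 8.72, 9.33 and 8.54 CPM. Only G9 kept the vehicle and 500 mg/kg groups from separating, at 9.31 against a maximum of 9.33 CPM. The share of all genes that separate once G9 is left aside was not counted. The slope was -1.15 ± 0.33 (SE, edgeR adjusted p = 0.154, DESeq2 adjusted p = 0.0497), and -0.94 without both mice (edgeR adjusted p = 0.218). Its gene overlaps Kcnmb4os1 and Kcnmb4os2, which averaged 0.182 and 2.30 CPM against 13.6 CPM for Kcnmb4.

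The BK pore gene Kcnma1 had 111 ± 34.7 CPM in vehicle and 86.4 ± 23.0 CPM at 500 mg/kg (slope -0.37 ± 0.21, edgeR adjusted p = 0.466). Kcnt2, the sodium-activated channel Slick, had 21.6, 12.6, 2.77 (G9), 12.7 and 8.99 CPM in vehicle mice and 2.31 (G4), 6.70, 5.65 and 9.30 CPM at 500 mg/kg. The groups overlapped, and its slope was -1.22 ± 0.48 (SE, edgeR adjusted p = 0.286). Its relative Kcnt1 (Slack) was at 105 ± 26.8 and 99.5 ± 47.0 CPM, and Kcnn3, a small-conductance channel, at 38.9 ± 12.8 and 54.8 ± 18.5 CPM (slope 0.38 ± 0.27). Kcnu1, the sperm channel Slo3, fell under the count filter with at most 1.81 CPM in any mouse.

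Mice G4 and G9 stood apart for many members. They were the 2 lowest of 18 mice for 20 of the 76 tested genes (26.3%), against 6.49% of all tested genes. Among the 20 were Kcna4, Kcne4, Kcnf1, Kcng1, Kcng3, Kcnh3, Kcnh4, Kcnh7, Kcnip2, Kcnip3, Kcnj3, Kcnj4, Kcnk2, Kcnma1, Kcnq5, Kcns2, Kcnt2 and Kcnv1. They were the 2 highest for 3 genes (3.95%, against 3.86% of all), among them Kcnh2 and Kcnj16. One of these mice had vehicle and the other the top dose. In both, the glutamatergic markers were lowest as well, while the 6 GABAergic markers summed to 844 CPM in G9 and 1060 CPM in G4, against 624 to 1180 CPM in the rest. The part of these markers in the channel slopes was not tested. Over the 16 other mice, glutamatergic markers summed to 2390 to 4350 CPM in vehicle mice and to 1610 to 2380 CPM at 500 mg/kg, so they too were lower at the top dose (all 5 slopes negative, 0 called by edgeR). All 6 oligodendrocyte markers had positive slopes with an unadjusted edgeR p under 0.05 (median slope 0.76, 0 called), with sums of 3790 to 6690 CPM in vehicle and 5490 to 15300 CPM at 500 mg/kg. Dopamine neuron markers, of which Slc6a3 and Ddc passed edgeR as higher with dose, summed to 20.2 to 104 CPM in vehicle and 70.9 to 333 CPM at 500 mg/kg. The part of either list in the positive channel slopes was not tested.

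**Figure D4:**
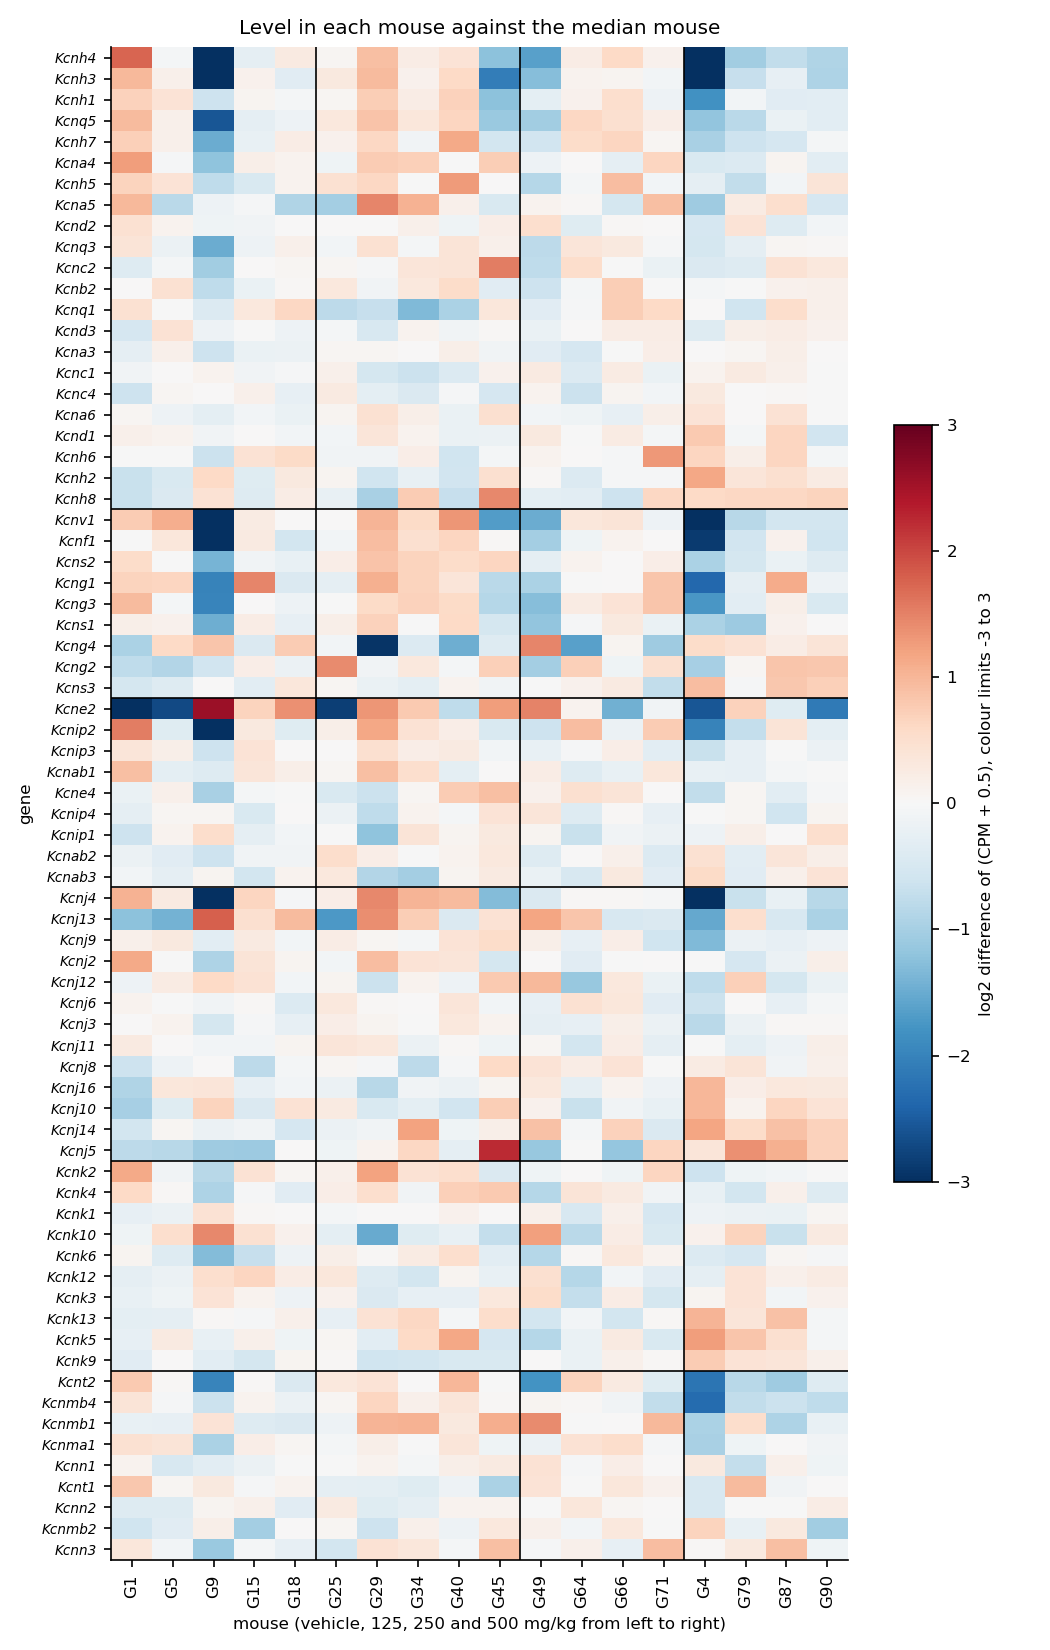
Level of 72 of the 76 tested genes (rows, by class and then slope) in each of 18 mice (columns, by dose), as the log2 difference of CPM + 0.5 from the median mouse, blue for lower and red for higher. The columns of G9 (vehicle) and G4 (500 mg/kg) hold the deepest blue in rows such as Kcnh3, Kcnj4 and Kcnv1, and the rows of Kcne2 and Kcnj13 vary from mouse to mouse in every group.

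**Figure D5:**
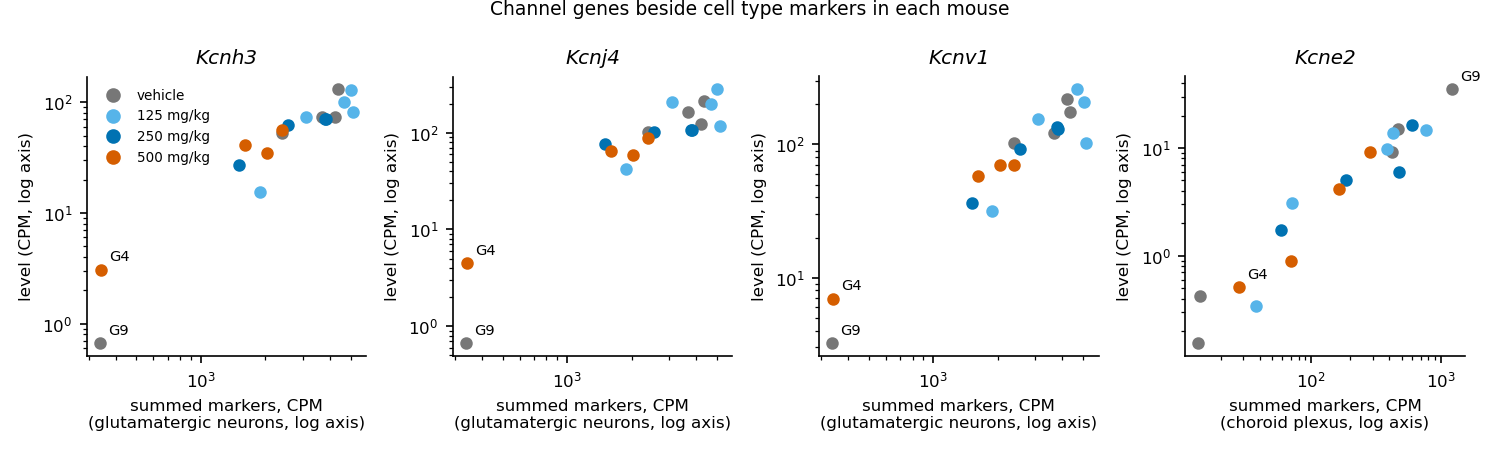
Level of Kcnh3, Kcnj4 and Kcnv1 (CPM, log axis) against the summed CPM of 5 glutamatergic neuron markers, and of Kcne2 against 6 choroid plexus markers (log axis), 1 point per mouse coloured by dose. G4 and G9 lie at the lower left in the neuronal panels, with marker sums of 340 and 336 CPM, and in the last panel G9 lies at the upper right with 1220 CPM.

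Each dose was also set against the same 5 vehicle mice, so these comparisons share their controls. At 125 mg/kg, edgeR called 0 members and 0.0% of all genes, and 12 members had an unadjusted p under 0.05 (15.8%, against 11.2% of all genes), 8 higher (4.66% of all genes) and 4 lower (6.51%) than vehicle. DESeq2 and limma-voom called 0 members. Differences leaned upward, with 56 of 76 positive and a median log2 difference of 0.19. The share of negative differences was 26.3%, against 50.2% of all genes. Without G4 and G9, 51 of 77 were positive and the median was 0.11. Region markers differed in the same comparison. The 6 cerebellar markers summed to 196 to 781 CPM at 125 mg/kg and 680 to 2340 CPM in vehicle, and the glutamatergic markers had a median sum of 4680 against 3670 CPM. Their part in the channel differences was not tested. The smallest p belonged to Kcns2 (log2 difference 0.69 ± 0.21, edgeR adjusted p = 0.326) and Kcnab2 (0.50 ± 0.16, edgeR adjusted p = 0.326). Every 125 mg/kg mouse lay above every vehicle mouse for Kcnab2 alone (1.1% of all genes did), at 447 to 646 CPM against 294 to 417 CPM. Every such mouse lay below for 2 members (1.68% of all genes did). These were Kcnt1 (66.2 ± 12.8 against 105 ± 26.8 CPM) and the K2P gene Kcnk10, TREK-2, named after its values were seen (12.5 ± 3.95 against 28.1 ± 13.3 CPM).

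At 250 mg/kg, edgeR, DESeq2 and limma-voom called 0 members, and 2 members had an unadjusted edgeR p under 0.05 (2.63%, against 3.76% of all genes). Both were higher than vehicle (2.2% of all genes) and 0 lower (1.56%). No member had all 250 mg/kg mice above vehicle (0.788% of all genes did) or all below (0.523%). At 500 mg/kg, edgeR and limma-voom called 0 members (edgeR called 0.0189% of all genes). DESeq2 called 1, Kcnk9, where it called 1.08% of all genes. An unadjusted edgeR p under 0.05 was reached by 14 members (18.4%, against 11.6% of all genes), 10 higher (7.51% of all genes) and 4 lower (4.07%) than vehicle. The 10 included Kcnk9 (log2 difference 0.65 ± 0.16, edgeR adjusted p = 0.137), Kcns3 (0.85 ± 0.24, 0.199) and Kcnj14 (1.19 ± 0.35, 0.209), and the 4 were Kcnmb4 (-1.01 ± 0.30, edgeR adjusted p = 0.216), Kcnh4, Kcnj9 and Kcnt2. Kcnab2, Kcna6 and Kcnj5 were among the 10 and also among the 12 at 125 mg/kg, with the same vehicle mice in both.

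The test for any difference among the 4 groups gave 0 members with edgeR (0.0441% of all genes called), 13 with an unadjusted p under 0.05 (17.1%, against 15% of all genes) and 0 with limma-voom. DESeq2 called 4 members, Kcnmb4, Kcns2, Kcnk9 and Kcnj5, where it called 3.4% of all genes. The dose slope differed between males and females for 0 members by edgeR, DESeq2 or limma-voom, and 1 member, Kcng2, a silent Kv6 subunit, had an unadjusted edgeR p under 0.05 (1.32%, against 1.65% of all genes). Only 1 female was given 250 mg/kg.

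A list of 26 genes whose products bind, anchor or regulate these channels was set beside them, of which 25 were tested. With edgeR 1 of them, Sgk1, rose with dose, and 0 fell, against 0.246% and 0.0441% of all genes. The list was chosen with earlier results of these data known, so its share cannot be weighed against that of all genes. Sgk1, a kinase induced by corticosteroids that raises the surface level of several channels, had 133 ± 21.3 CPM with vehicle. The 125 mg/kg mice had 218 ± 57.6, the 250 mg/kg mice 265 ± 69.1 and the 500 mg/kg mice 339 ± 115 CPM. Top-dose levels (230 to 502 CPM) did not overlap vehicle levels (109 to 149 CPM), and the slope was 1.27 ± 0.24 (SE, edgeR adjusted p = 0.0341). Without G4 and G9 the slope was 0.98 (edgeR adjusted p = 0.221, DESeq2 adjusted p = 0.0475), and without G4 alone the DESeq2 adjusted p was 0.0625. The edgeR call was also lost with 1 surrogate variable (slope 1.20, adjusted p = 0.0819), with the tag number as block (0.82, adjusted p = 1.0), without the vehicle or the 500 mg/kg mice, and in either sex alone. When each mouse was left out in turn the slope ran from 0.97 to 1.44 and the call held in 13 of 18 fits. It was lost without G1, G4, G5, G15 or G87, each left out alone, with an edgeR adjusted p of up to 0.314. Calm2, a calmodulin gene, had a slope of -0.59 ± 0.14 (edgeR adjusted p = 0.0847) and was called by DESeq2 (adjusted p = 0.0079, 0.0475 without G4 and G9, and 0.0708 without G4 alone). The slope of Vapb, which holds Kv2 channels at membrane contacts, was 0.35 ± 0.11 (edgeR adjusted p = 0.189), and that of Dpp10, a Kv4 partner, was -0.41 ± 0.18 (edgeR adjusted p = 0.335). The 25 tested genes had 16 negative and 9 positive slopes with a median of -0.09. The 4 HCN genes, which carry a pacemaker current through a related pore that also passes sodium, all had positive slopes, with 0 called and a median of 0.33. Of these 4 slopes, 3 were positive with 1 surrogate variable and in females alone, and 2 without the 500 mg/kg mice. The largest was that of Hcn2, at 152 ± 37.2 CPM in vehicle and 256 ± 75.3 CPM at 500 mg/kg (slope 0.78 ± 0.26, edgeR adjusted p = 0.201).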

How the data were processed

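RNA was sequenced from bulk brain tissue of 18 mice (10 males, 8 females). After removing ribosomal RNA, the authors built strand-specific libraries from 250 ng of total RNA, read 100 bp pairs, aligned them to GRCm38 with STAR 2.7.5b and checked quality with MultiQC 1.12. The authors deposited raw read counts per gene from featureCounts, by Entrez number, in 1 table. The strand setting and annotation release of the count are not given in the sources used here. Symbols and gene positions came from RefSeq GRCm38.p6, which held 25275 of the 27179 identifiers. Exon lengths were those of the merged exons of each gene in GENCODE M21. The members and lists were chosen with earlier results of these data known.

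Counts were analysed in R 4.3.3 with edgeR 4.0.16: TMM normalization, filterByExpr by dose group (minimum count 10, 15863 genes left), and the quasi-likelihood F test with sex as covariate, over all 18 mice. Dose was divided by 500 mg/kg. The biological coefficient of variation was 25.8%. Tests were a straight dose line, each dose against vehicle, any difference among the groups and dose by sex. P-values were adjusted over all tested genes by the Benjamini-Hochberg method. Levels are TMM-normalized CPM (counts scaled to a common library size), with mean and SD over mice, and ± after a slope or log2 difference is its standard error, derived from the F statistic. Intervals rest on the spread between mice, and depth was 3948096 to 11732885 counts per mouse. The test was checked on simulated counts in which 200 genes changed. The dose line test called 4.05% of slopes of size 0.5, 54.7% of size 1 and 93.5% of size 2. Of its calls, 3.03% were false. Slopes well under 1 would thus mostly go uncalled. The simulated spread followed the trend over all genes, with none particular to a gene and no mice that stand apart as G4 and G9 do. For genes with wider spread these percentages are thus too high, and steeper slopes such as that of Kcnh4 (-1.82 ± 0.75) also went uncalled.

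Named genes were set by a rule: the 15 smallest p in the dose regression, and in each subfamily the smallest p and the highest CPM per kb, which gave 34, plus members that separated 500 mg/kg from vehicle. The 4 companions of smallest p were named too. Other genes, such as Kcnh3, Kcnj4, Kcnj13 and Kcnk10, were named after their values were seen. Marker lists of 5 or 6 genes gave the levels of cell types and regions. Counts over members cover all 76 tested genes, of which 4, with 1 marker and 1 sequence window, are not reported by name here.

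Alternatives were limma-voom (limma 3.58.1), DESeq2 1.42.0 (release 1.34.0 in the authors' own work), DESeq2 size factors, other count filters, no sex covariate, 1 surrogate variable (sva 3.50.0), dose as rank, subsets of groups or sexes, the number in the mouse tag as block, and leaving out each mouse. Leaving out G4 and G9 together, and DESeq2 without them, was chosen after seeing the data.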

Additional observations from a re-analysis of the deposited data

Results flagged for a closer look

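Single mice stood apart from the rest of their dose group in 8 of 136 groups looked at (34 genes in 4 groups of 4 or 5 mice), judged by the gap to the nearest other mouse relative to the range of the group. Chance gives about 1 in 20, and the genes share their mice. At 500 mg/kg mouse G4 was lowest for Kcnmb4 (2.57 CPM, others 8.54 to 9.33) and for Kcnj9 (40.7 CPM, others 87.1 to 92.6), and highest for Kcnj16 (82.5 CPM, others 47.1 to 51.1). In the same dose group mouse G90 was highest for Kcnk1 (121 CPM, others 102 to 105). At 125 mg/kg mouse G25 was highest for Kcnk9 (42.9 CPM, others 27.5 to 30.4), mouse G34 for Kcnj14 (8.52 CPM, others 2.99 to 3.89) and mouse G45 for Kcnj5 (9.82 CPM, others 1.32 to 2.89). Among vehicle mice, G18 was highest for Kcnj5 (1.71 CPM, others 0.529 to 0.770). The slopes of Kcnmb4, Kcnj9 and Kcnj16 without G4 alone were -0.81, -0.37 and 0.36. The slope of Kcnj14 without G34 was 1.24, and that of Kcnj5 without G45 was 1.82.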

How the results depend on the processing

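With all mice and the settings of the report, edgeR called 0 potassium channel genes in each of the 6 comparisons. The count of calls in the dose regression was 3 with DESeq2, 1 (Kcnk9) with at least 10 counts in every library and 1 (Kcns2) without the vehicle mice. It ran from 0 to 1 when each mouse was left out, with Kcnk9 called without G18 or G29 and Kcns3 without G79. DESeq2 called 1 at 500 mg/kg (1.08% of all genes) and 4 for any difference (3.4% of all genes). For any difference, leaving out a mouse gave 0 to 1 with edgeR (Kcns2 without G9). The shares of all genes called with other filters, subsets or left-out mice are not given here. The median slope of -0.12 was 0.01 with no filter, -0.03 with limma-voom, 0.08 with 1 surrogate variable, 0.05 without the 500 mg/kg mice, -0.25 without vehicle mice, -0.21 in females, 0.05 with the tag number as block, -0.05 without G4 and G9 (-0.06 with DESeq2), -0.04 without G4 with DESeq2, and -0.13 to -0.04 leaving out each mouse. Slopes took the opposite sign without the 500 mg/kg mice for Kcnk13 (-0.34), Kcns2 (0.25), Kcnma1 (0.01), Kcnq5 (0.22), Kcng3 (0.10), Kcne2 (0.38), Kcnj13 (1.01), Kcnd2 (0.00), Kcng4 (-0.17) and Kcnt1 (-0.19). They did so with 1 surrogate variable for Kcnj4 (0.08), Kcnq5 (0.27), Kcnh3 (0.36), Kcnf1 (0.04), Kcng3 (0.15) and Kcng4 (-0.10). The same held with the tag block for Kcnab1 (0.15) and Kcnd2 (0.32), without vehicle mice for Kcnab2 (-0.00), in females for Kcnd2 (0.14), in males for Kcnt1 (-0.23) and without G79 for Kcnt1 (-0.29). The cause was not tested. The dose groups share no replicate numbers, so no replicate block was fitted, and the tag number, which some dose groups share, served as the block given above. Depth limits the 14 genes under the count filter, for which no test was made.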
